A study of Mus musculus with 45 samples.

Results

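The Hox genes encode homeodomain transcription factors that lie side by side in 4 clusters in the mouse, Hoxa on chromosome 6, Hoxb on chromosome 11, Hoxc on chromosome 15 and Hoxd on chromosome 2. A gene's number gives its paralogue group, the set of genes that hold matching places in the different clusters. Low numbers lie at the end of a cluster that is opened first in the embryo and mark the hindbrain and neck, while high numbers are switched on later and mark the trunk, limbs and tail. The clusters are kept silent in embryonic stem cells (ESCs) by Polycomb repression, are opened by retinoic acid, Wnt and Cdx factors, and act on their targets together with Pbx and Meis cofactors. The members described here are all genes of the annotation whose symbol is Hoxa, Hoxb, Hoxc or Hoxd with a paralogue number and that had a probe set of their own. They number 33 of the 39 such genes in the RefSeq gene table, out of 18193 named genes on the array. Each was read from its probe set with the highest mean over all 45 arrays. There were 9 members in Hoxa, 9 in Hoxb, 7 in Hoxc and 8 in Hoxd. The other 6 were not analysed here, among them Hoxb8 and Hoxd4, which had only probe sets shared with a neighbour.

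The study followed male mouse ESCs of strain 129 that were grown by hanging drop into embryoid bodies (EBs), aggregates in which cells of the 3 germ layers form. The groups were KD, cells labelled as silenced for Strip2, a gene for a subunit of the striatin-interacting phosphatase and kinase complexes, SCR, cells with a scrambled control, and WT, the wild-type line. Each line was sampled before aggregation and after 4, 8, 12 and 16 days as EBs, on 3 Affymetrix Mouse 430 2.0 arrays for each of the 15 groups. The labels do not say whether a line is a clone, how many EBs were pooled or whether the 3 arrays of a group are separate cultures. Every p-value here therefore refers to the spread among these arrays, and that spread may be technical. The number of arrays limits the precision.

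The medians of the arrays were 5.02 to 5.18 (log2), and arrays of a group correlated at 0.989 to 0.996 over probe sets. The single Strip2 probe set read 3.55 to 3.86 in KD-labelled, 4.46 to 4.88 in SCR and 2.98 to 3.23 in WT EBs of 12 days (log2 signal), and 3.01 to 3.43, 4.40 to 5.60 and 2.52 to 3.12 in the same order at 16 days. KD minus SCR was -0.92 and -1.56 there (limma adjusted p = 0.000102 and 8.63e-09), and KD minus WT 0.63 (adjusted p = 0.00606) and 0.40 (adjusted p = 0.0697). All KD-labelled and WT values of these days lay under 4.54, the level taken as background below, so this probe set cannot show whether Strip2 was lower in KD-labelled than in WT EBs. In earlier samples KD minus SCR was -0.13, 0.46 and 0.04 in ESCs and at days 4 and 8 (adjusted p = 0.713, 0.0515 and 0.875). Since this probe set does not settle the silencing, the line is called KD-labelled throughout, and all directions stated for it are those of that label. Among the 8-day arrays, replicate 1 of every line is tagged as undifferentiated ESCs in 1 of its label fields, against its title. Without these 3 arrays 22 members were called between KD-labelled and SCR EBs at day 8, against 24 with them.

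Markers of several cell types differed between the lines. The mean level of 10 pluripotency markers (Pou5f1, Nanog, Zfp42 and others) was 10.7 to 10.8 in KD-labelled, 10.5 to 11.0 in SCR and 10.9 to 11.3 in WT ESCs. At day 8 it was 10.4 to 10.5 in KD-labelled, 4.85 to 5.30 in SCR and 4.94 to 5.52 in WT EBs. The KD-labelled EBs thus lay close to ESCs for these genes, and all 10 were called higher than SCR at days 8, 12 and 16. The mean of 12 paraxial, lateral and limb mesoderm markers was 4.14 to 4.33 in KD-labelled, 6.42 to 6.74 in SCR and 5.88 to 6.03 in WT EBs of 8 days, and 8 of the 12 were called lower and 1 higher in KD-labelled than in SCR EBs (24.7% and 28.0% of all genes). At the same day 5 mesenchyme markers averaged 4.99 to 5.22 in KD-labelled, 12.0 to 12.6 in SCR and 12.6 to 12.7 in WT EBs, and all 5 were lower. The 4 cardiac markers averaged 4.65 to 4.74 in KD-labelled, 9.31 to 11.1 in SCR and 6.29 to 7.69 in WT EBs, and all 4 were lower. The 7 blood markers averaged 4.97 to 5.17 in KD-labelled, 8.06 to 8.30 in SCR and 8.17 to 8.64 in WT EBs, with 5 lower and 1 higher. Not all markers followed this direction. The 6 endoderm markers averaged 7.13 to 7.43 in KD-labelled EBs, above the 5.17 to 5.34 of KD-labelled ESCs, and 7.95 to 8.10 in SCR and 7.68 to 7.95 in WT EBs, with 3 lower and 1 higher. The 9 neural markers averaged 4.82 to 5.01 in KD-labelled, 4.63 to 4.83 in SCR and 4.57 to 4.68 in WT EBs, with 1 lower and 2 higher. Of 4 primitive streak markers 3 were higher at day 8, and of 3 trophoblast markers 2. These directions did not hold on every day. At day 4 the streak markers averaged 5.37 for the KD-labelled line, below SCR (8.04) and WT (8.42). At day 16 the neural markers averaged 4.82 for the KD-labelled line, below SCR (6.45) and WT (6.19). The trophoblast mean of that day was 6.51 for the KD-labelled line, above SCR (4.44) but below WT (7.73). The part of these cell type differences in the Hox results was not tested, and in bulk samples fewer cells of a type and less RNA per cell cannot be told apart.

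To show the promoters of members that the results turn on, the RefSeq windows of 300 bases, from 250 before to 50 after the gene's start (assembly GRCm38.p6), are printed for the Hoxb1 and Hoxd1 genes of the first paralogue group and for the neighbours Hoxd8, Hoxd9 and Hoxd10, which were high in SCR and WT EBs of 8 days. Capitals mark AGGTCA or its reverse complement TGACCT, the half-site bound by retinoid receptors, and all other letters are lower case.
Hoxb1, chr11:96365508-96365807, plus strand: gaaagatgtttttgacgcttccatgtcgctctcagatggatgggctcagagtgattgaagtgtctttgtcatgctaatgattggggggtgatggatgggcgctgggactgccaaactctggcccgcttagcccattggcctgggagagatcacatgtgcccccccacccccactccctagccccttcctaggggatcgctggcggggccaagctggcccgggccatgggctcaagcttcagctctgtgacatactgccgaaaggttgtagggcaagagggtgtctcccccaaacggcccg
Hoxd1, chr2:74762730-74763029, plus strand: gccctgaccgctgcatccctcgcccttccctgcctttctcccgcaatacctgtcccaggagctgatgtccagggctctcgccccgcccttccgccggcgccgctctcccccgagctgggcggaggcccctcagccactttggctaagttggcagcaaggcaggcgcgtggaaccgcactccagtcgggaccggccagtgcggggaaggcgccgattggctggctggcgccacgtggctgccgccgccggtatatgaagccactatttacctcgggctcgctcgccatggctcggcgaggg
Hoxd8, chr2:74704365-74704664, plus strand: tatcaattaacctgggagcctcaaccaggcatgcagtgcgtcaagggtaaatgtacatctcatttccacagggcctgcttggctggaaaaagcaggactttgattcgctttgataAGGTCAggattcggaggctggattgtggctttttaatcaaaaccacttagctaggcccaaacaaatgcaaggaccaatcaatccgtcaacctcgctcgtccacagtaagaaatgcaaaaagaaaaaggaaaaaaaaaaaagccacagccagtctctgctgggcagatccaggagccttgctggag
Hoxd9, chr2:74697513-74697812, plus strand: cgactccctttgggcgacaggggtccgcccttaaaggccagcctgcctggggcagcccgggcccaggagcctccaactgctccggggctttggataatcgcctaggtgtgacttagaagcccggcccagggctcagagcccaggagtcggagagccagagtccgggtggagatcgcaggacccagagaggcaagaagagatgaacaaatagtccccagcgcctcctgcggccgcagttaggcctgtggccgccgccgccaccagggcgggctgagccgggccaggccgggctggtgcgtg
Hoxd10, chr2:74691641-74691940, plus strand: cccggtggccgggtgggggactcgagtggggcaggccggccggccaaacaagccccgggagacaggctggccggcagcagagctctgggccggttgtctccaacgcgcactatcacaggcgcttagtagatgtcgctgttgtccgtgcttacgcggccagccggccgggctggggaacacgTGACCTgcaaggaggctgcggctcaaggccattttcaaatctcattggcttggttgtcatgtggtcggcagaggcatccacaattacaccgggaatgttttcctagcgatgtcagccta
Hoxd8 holds the half-site on the plus strand, starting at base 116 of its window, and Hoxd10 holds it on the minus strand, at base 182. Windows were found for 21 starts of 19 members, and 6 of the 21, those of Hoxa5, Hoxb4, Hoxc4, Hoxd3, Hoxd8 and Hoxd10, hold the half-site (28.6%), against 16.3% of all 32851 windows in the table. TGATTNAT, a PBX-HOX type site, was in 2 of the 21 (Hoxa2 and Hoxd11; 9.52%, against 3.22% of all), and TGACAG, a MEIS type site, was in 2 (Hoxa2 and Hoxa3; 9.52%, against 19.2%). TTTATNG, a CDX type site, was in none, against 10.9% of all windows. All were searched on both strands, matches of different motifs may share bases, and a match is a description of letters, not a site. The Hox windows had a median GC content of 58.0%, against 52.7% in all windows, and a median ratio of observed to expected CpG of 0.596, against 0.384.

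The levels of the 33 members over time separated the lines. A level was read as above background where a group mean exceeded 4.54, the 95th percentile of the values of 71 olfactory, vomeronasal and trace amine receptor genes, which are not known as genes of ESCs or EBs. By that measure 12, 12, 12, 13 and 13 of the 33 members were above background in KD-labelled ESCs and EBs of 4, 8, 12 and 16 days. In SCR the numbers were 10, 17, 19, 19 and 17, and in WT 11, 18, 19, 18 and 17. Of all genes, 67.3% to 69.3% were above it in every group. The Hox numbers depend on the probe set read. In KD-labelled ESCs the brightest sets of Hoxa5 and Hoxa9 averaged 6.11 and 5.91, but their other sets averaged 4.41 and 3.80, under the background. For Hoxb3 the brightest averaged 4.31 and the other 5.18. Being above this level was thus not taken as proof that a gene was expressed. No KD-labelled group mean of any member was above 6.32. The mean over the 33 members was 4.19 to 4.26 in the KD-labelled arrays of day 8, 5.30 to 5.37 in SCR and 5.29 to 5.46 in WT. The map of group means shows the KD-labelled panel with little change from stage to stage.

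**Figure D1:**
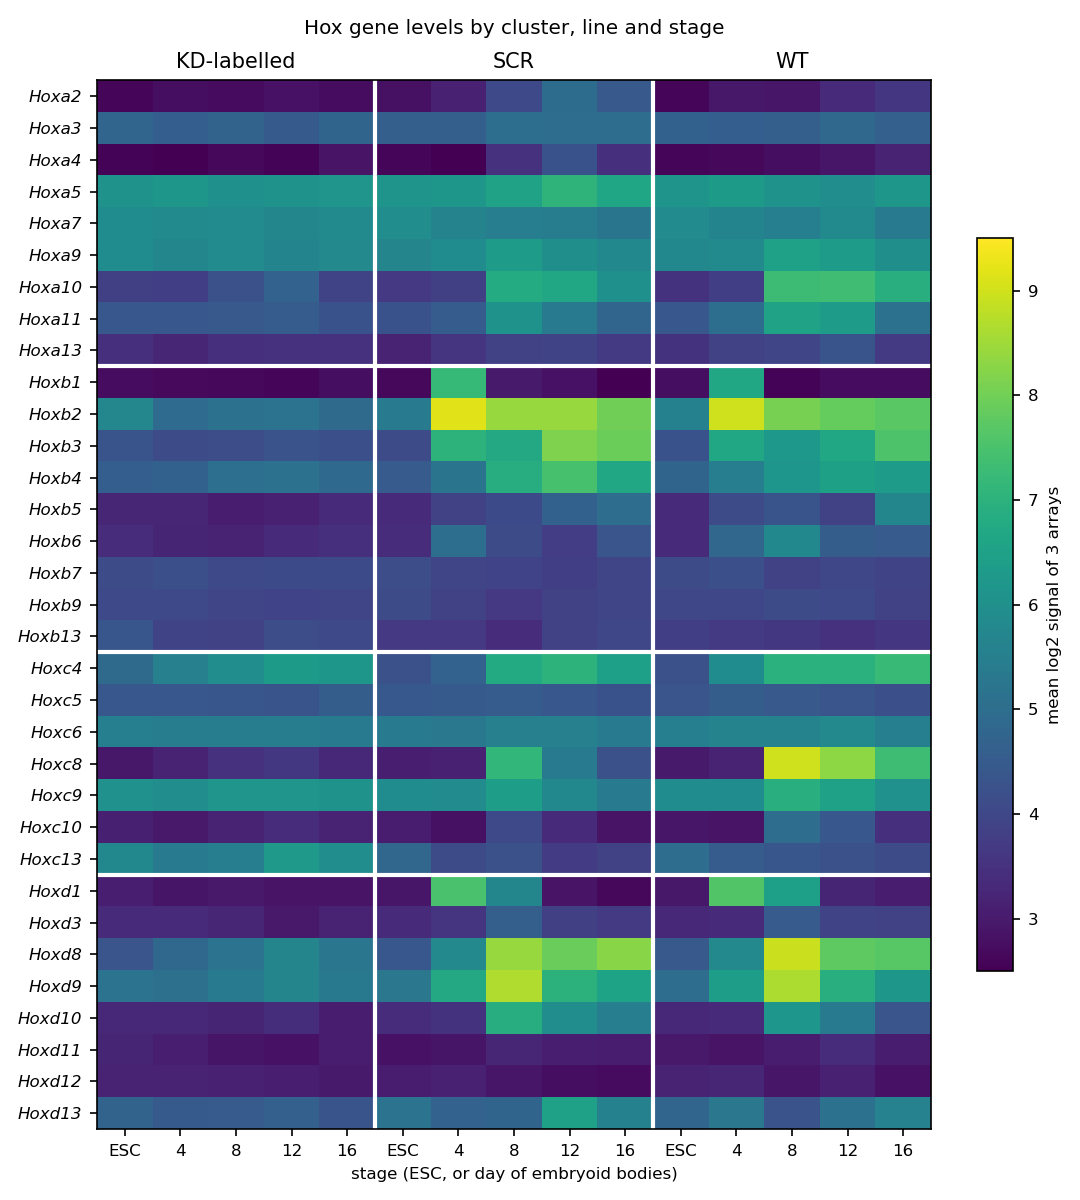
Mean log2 signal of 3 arrays for each of the 33 Hox genes (rows, by cluster and paralogue number) in KD-labelled, SCR and WT cells at each stage (columns). Hoxb1, Hoxb2 and Hoxd1 are bright at day 4 and Hoxc8, Hoxd8 and Hoxd9 at day 8 in SCR and WT, while in the KD-labelled panel no group mean is above 6.32.

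The comparison of EB days with ESCs asks which Hox genes were switched on in each line, and when. Members that were called higher than in ESCs (limma, p adjusted by Benjamini-Hochberg across the 18193 genes and under 0.05) at days 4, 8, 12 and 16 numbered 1, 3, 6 and 2 of 33 in KD-labelled EBs, where 12.4%, 17.8%, 20.2% and 19.1% of all genes were called higher. In SCR EBs they numbered 11, 22, 18 and 17, against 20.6%, 26.0%, 27.5% and 29.1% of all genes, and in WT EBs 11, 18, 19 and 17, against 21.4%, 25.8%, 26.8% and 28.1%. Called lower were 2, 3, 2 and 1 members in KD-labelled EBs (11.4%, 19.1%, 23.2% and 19.1% of all genes), 1, 4, 3 and 4 in SCR EBs (21.9%, 32.2%, 39.1% and 42.7%) and 0, 3, 1 and 3 in WT EBs (20.3%, 30.8%, 33.2% and 38.1%). In KD-labelled EBs the Hox share of higher calls was below the share of all genes at days 4, 8 and 16. At day 12 it was close to that share (6 of 33, against 20.2%). In SCR and WT EBs it was above the share of all genes on each day. The 4 comparisons of a line share its ESC arrays. A rise of at least 2-fold on at least 1 day was called for 2 members in KD-labelled EBs, 19 in SCR and 17 in WT, when 8.28%, 19.7% and 19.5% of all genes in these lines passed the same rule.

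In SCR EBs 7 members passed the 2-fold rise at day 4, namely Hoxb1, Hoxb2, Hoxb3, Hoxb6, Hoxd1, Hoxd8 and Hoxd9, and in WT EBs these and Hoxc4. A further 9 in SCR and 8 in WT first passed it at day 8, among them Hoxa10, Hoxa11, Hoxb4, Hoxc8, Hoxc10, Hoxd3 and Hoxd10 in both lines. By cluster, no Hoxa member passed it at day 4 in either control line, and 4 of the 9 Hoxb members did in each. Of paralogue groups 1 to 4, 4 of 10 members in SCR and 5 of 10 in WT passed it at day 4, whereas of groups 9 to 13 only Hoxd9 did, 1 of 14 in each line. Without the 2-fold minimum 20.6% of all genes in SCR and 21.4% in WT were called higher at day 4. At day 8 these shares were 26.0% and 25.8%. With the minimum they cannot be larger, and they are not given here, so whether 1 of 14 lies below them is not known. In KD-labelled EBs the 2 members were Hoxc4, first at day 8, and Hoxd8, first at day 12. Across the 33 members, which are neighbours and not independent, Spearman's rho between paralogue number and the change since ESCs was -0.25, -0.01, 0.19 and -0.16 at days 4, 8, 12 and 16 in KD-labelled EBs. It was -0.50, -0.30, -0.23 and -0.24 in SCR EBs and -0.46, -0.17, -0.06 and -0.20 in WT EBs, so its size was greatest at day 4 in each line.

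Between KD-labelled and SCR ESCs few Hox genes differed. Called higher were 4 of the 33 members, against 12.3% of all genes, and called lower were none at adjusted p under 0.05, against 11.3%. Hoxc13, in mouse a gene of hair follicles and nails, read 5.95, 5.50 and 5.85 in KD-labelled ESCs and 4.57, 4.63 and 5.20 in SCR ESCs, and 4.80, 4.69 and 5.55 in WT ESCs. Its KD-labelled and SCR arrays did not overlap, its highest WT array lay above its lowest KD-labelled array, and the difference from SCR was 0.97 (SE 0.22, adjusted p = 0.00104). Hoxc4 read 5.05, 4.76 and 4.97 in KD-labelled, 4.31, 4.22 and 4.18 in SCR and 4.18, 4.45 and 4.07 in WT ESCs. All its KD-labelled arrays lay above all control arrays, by 0.69 against SCR (SE 0.14, adjusted p = 0.000155). Hoxb13, a posterior gene of tail and prostate, differed from SCR by 0.69 (adjusted p = 0.000551), with means of 4.37 in KD-labelled and 3.67 in SCR ESCs. Its lowest KD-labelled array (3.90) lay below its highest WT array (3.95). Hoxd11, a limb and kidney gene, differed by 0.39 (adjusted p = 0.0149), with means of 3.24 and 2.85 in the same order. The means of both genes lay under the background of 4.54, so their differences are ones of probe signal at background. Hoxc13, Hoxc4 and Hoxb13 were called higher than WT too, when 5.84% of all genes were called higher against both controls.

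At day 4, 9 of the 33 members were lower and 3 higher in KD-labelled than in SCR EBs, where 19.9% of all genes were lower and 22.6% higher. By paralogue number these were 5 lower and 1 higher of the 10 members of groups 1 to 4, 3 lower and 1 higher of 9 in groups 5 to 8, and 1 of each of 14 in groups 9 to 13. Where a group lay under 4.54, as KD-labelled EBs did for Hoxb1, Hoxb3, Hoxb6, Hoxd1, Hoxc8, Hoxd10 and Hoxa2, a log2 difference is one of probe signal against background, and no fold is given for it. Hoxb1, a gene of the fourth hindbrain segment, read 2.71, 2.73 and 2.59 in KD-labelled EBs, 6.39, 7.38 and 7.79 in SCR and 6.29, 6.35 and 7.38 in WT. The KD-labelled values lay close to those of KD-labelled ESCs (2.66 to 2.87) under the background, and the log2 difference from SCR was -4.51 (SE 0.23, adjusted p = 2.05e-18). In the controls the rise was gone by day 8, when Hoxb1 read 2.70 to 3.42 in SCR and 2.54 to 2.58 in WT. Hoxd1, its paralogue in the Hoxd cluster, read 2.83, 2.95 and 2.90 in KD-labelled, 7.39, 7.49 and 7.55 in SCR and 7.77, 7.53 and 7.51 in WT EBs. KD minus SCR was -4.58, again against KD-labelled values under the background (SE 0.17, adjusted p = 1.13e-22), and in the controls it lasted to day 8 and was back at 2.78 to 2.99 in SCR and 2.99 to 3.40 in WT at day 12.

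Hoxb2 and Hoxb3, also genes of hindbrain segments, rose with these and stayed high in the controls. Hoxb2 read 5.07, 4.60 and 5.14 in KD-labelled, 9.18, 9.29 and 9.12 in SCR and 9.28, 8.89 and 8.80 in WT EBs of 4 days. All control arrays lay more than 3 log2 units above all KD-labelled ones, and the difference from SCR was -4.26 (SE 0.24, adjusted p = 3.47e-17), or 19.2-fold. Hoxb3 read 4.14, 4.08 and 4.16 in KD-labelled, 6.86, 6.67 and 7.56 in SCR and 7.07, 6.75 and 6.15 in WT EBs (KD minus SCR -2.90, SE 0.31, adjusted p = 6.49e-10). It stayed at 3.90 to 4.46 in KD-labelled EBs from day 8 to day 16, against 6.36 to 8.44 in SCR and 5.77 to 7.95 in WT. Hoxb6, a trunk gene, differed by -1.81 (SE 0.31, adjusted p = 8.01e-06), with 2.92 to 3.63 in KD-labelled, 4.24 to 5.83 in SCR and 4.25 to 5.84 in WT EBs. Against both controls the 9 lower members of day 4 were Hoxb1 to Hoxb6, Hoxd1, Hoxd8 and Hoxd9 (16.8% of all genes were lower against both), and none belonged to Hoxa or Hoxc. Of the higher ones, Hoxc13 alone passed against both (1.28 against SCR, 0.83 against WT; 17.6% of all genes were higher against both). Hoxc4 was 0.86 above SCR (adjusted p = 1.93e-06) but 0.36 below WT (adjusted p = 0.0311), with 5.42 to 5.74 in KD-labelled, 4.63 to 4.80 in SCR and 5.75 to 6.05 in WT EBs, and Hoxb7 was 0.25 above SCR (adjusted p = 0.036) and -0.02 from WT.

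**Figure D2:**
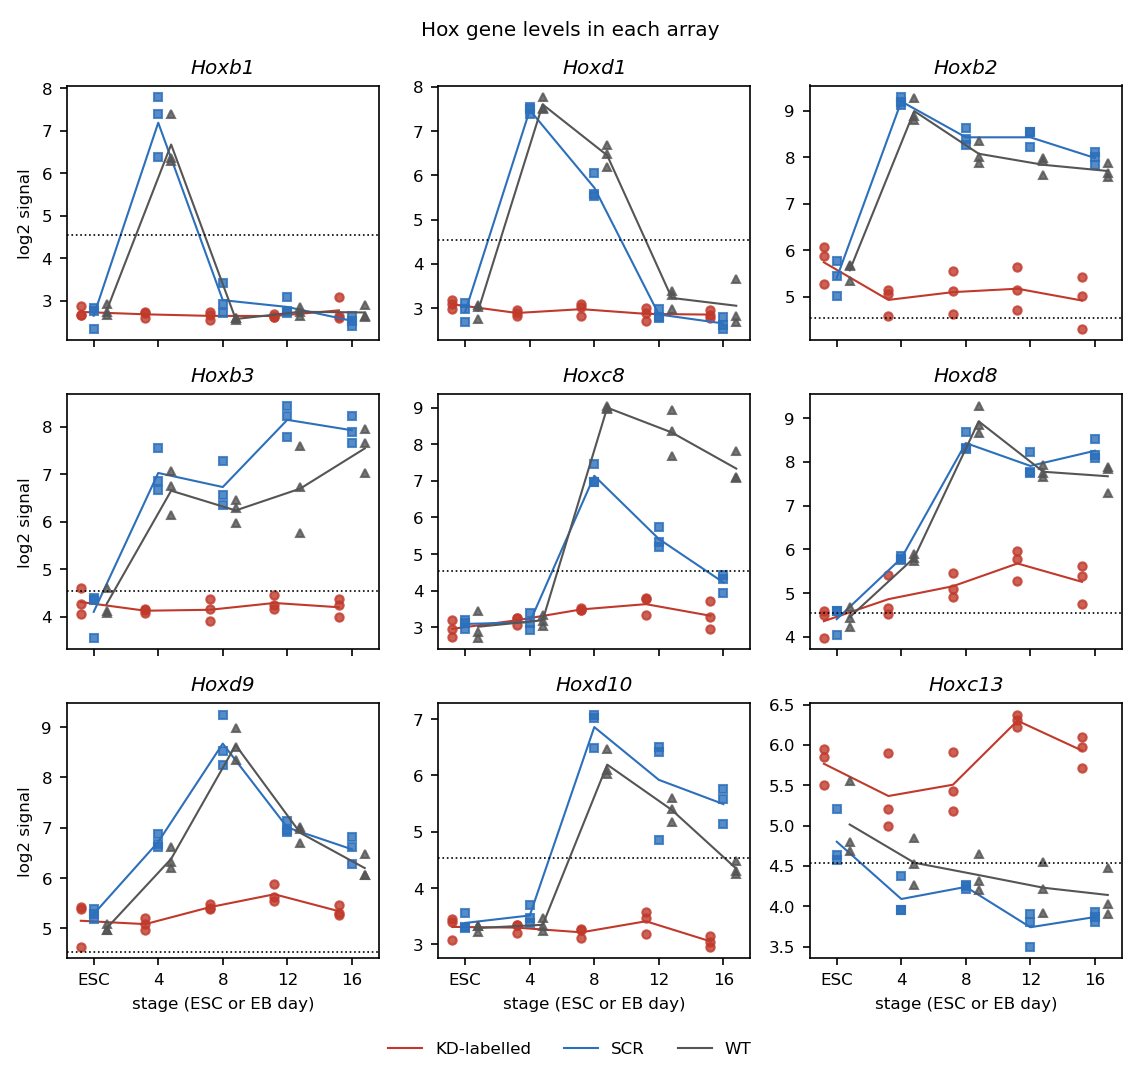
Log2 signal of 9 Hox genes in every array by stage, for KD-labelled (circles), SCR (squares) and WT cells (triangles), with lines through the group means and a dotted line at the receptor background of 4.54. Hoxb1 and Hoxd1 peak at day 4 in the controls, Hoxc8, Hoxd8, Hoxd9 and Hoxd10 at day 8, and Hoxc13 is higher in the KD-labelled cells from ESCs to day 16.

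At day 8 members of all 4 clusters were lower. Compared with SCR, 21 of the 33 members were lower in KD-labelled EBs and 3 higher, when 24.7% of all genes were lower and 28.0% higher. For Hoxa2, Hoxa4, Hoxa13, Hoxb5, Hoxb6, Hoxc10 and Hoxd11, among the lower ones, the KD-labelled and SCR means both lay under 4.54. Their differences are ones of probe signal at background. The median difference of the 33 was -0.83, and that of all genes was 0.07. Lower against both controls were 17 members (21.0% of all genes), 4 of them in Hoxa, 5 in Hoxb, 3 in Hoxc and 5 in Hoxd. All 3 KD-labelled arrays lay below all 6 control arrays for 17 members, as for 22.6% of all genes.

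Hoxc8, a thoracic gene, read 3.48, 3.47 and 3.52 in KD-labelled, 7.46, 6.98 and 6.97 in SCR and 8.99, 8.96 and 9.04 in WT EBs of 8 days. The KD-labelled arrays lay under the background, KD minus SCR was -3.65 (SE 0.23, adjusted p = 4.25e-16) and KD minus WT -5.51 (adjusted p = 4.72e-21), and the controls themselves did not overlap. Hoxd10, a gene of the lumbar cord and limbs, read 3.26, 3.27 and 3.11 in KD-labelled, 7.02, 7.07 and 6.48 in SCR and 6.02, 6.46 and 6.09 in WT EBs (KD minus SCR -3.64, SE 0.23, adjusted p = 6.33e-16). Its neighbours were high in both controls too. Hoxd8 read 5.09, 4.91 and 5.47 in KD-labelled, 8.68, 8.29 and 8.33 in SCR and 8.85, 8.66 and 9.28 in WT EBs (-3.28 against SCR, SE 0.23, adjusted p = 7.14e-15). Hoxd9 read 5.48, 5.41 and 5.38 in KD-labelled, 8.25, 9.24 and 8.53 in SCR and 8.34, 8.61 and 8.98 in WT EBs (-3.25, SE 0.19, adjusted p = 4.72e-17). These are genes whose promoter windows are printed above, and in each the control arrays stood well clear of the KD-labelled arrays. Hoxb2 was still lower by 3.32 on the log2 scale (5.12, 5.55 and 4.64 in KD-labelled, 8.26, 8.40 and 8.62 in SCR EBs; SE 0.24, adjusted p = 1.85e-14). In Hoxa the largest difference was that of Hoxa10, at 4.11 to 4.43 in KD-labelled, 6.27 to 7.64 in SCR and 7.05 to 7.48 in WT EBs (-2.59 against SCR).

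Higher in KD-labelled than in SCR EBs of 8 days were Hoxc13, Hoxb13 and Hoxa7. Hoxc13 read 5.18, 5.43 and 5.91 in KD-labelled, 4.21, 4.26 and 4.25 in SCR and 4.20, 4.65 and 4.31 in WT EBs (1.27 against SCR, SE 0.22, adjusted p = 7.81e-06). Hoxa7, a trunk gene, read 5.96, 5.73 and 5.94 in KD-labelled, 5.53, 5.42 and 5.53 in SCR and 5.23, 5.49 and 5.81 in WT EBs (0.38, adjusted p = 0.0211). Hoxb13 differed by 0.46 (adjusted p = 0.0104), with 3.80 to 3.88 in KD-labelled and 3.16 to 3.56 in SCR EBs, below the receptor background. Hoxc13 and Hoxa7 were called higher than WT as well, when 23.1% of all genes were higher against both controls. The call of Hoxa7 was lost when any of 3 arrays was left out (0.34 and 0.35 without the first or the last KD-labelled array, 0.35 without the second SCR array).

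**Figure D3:**
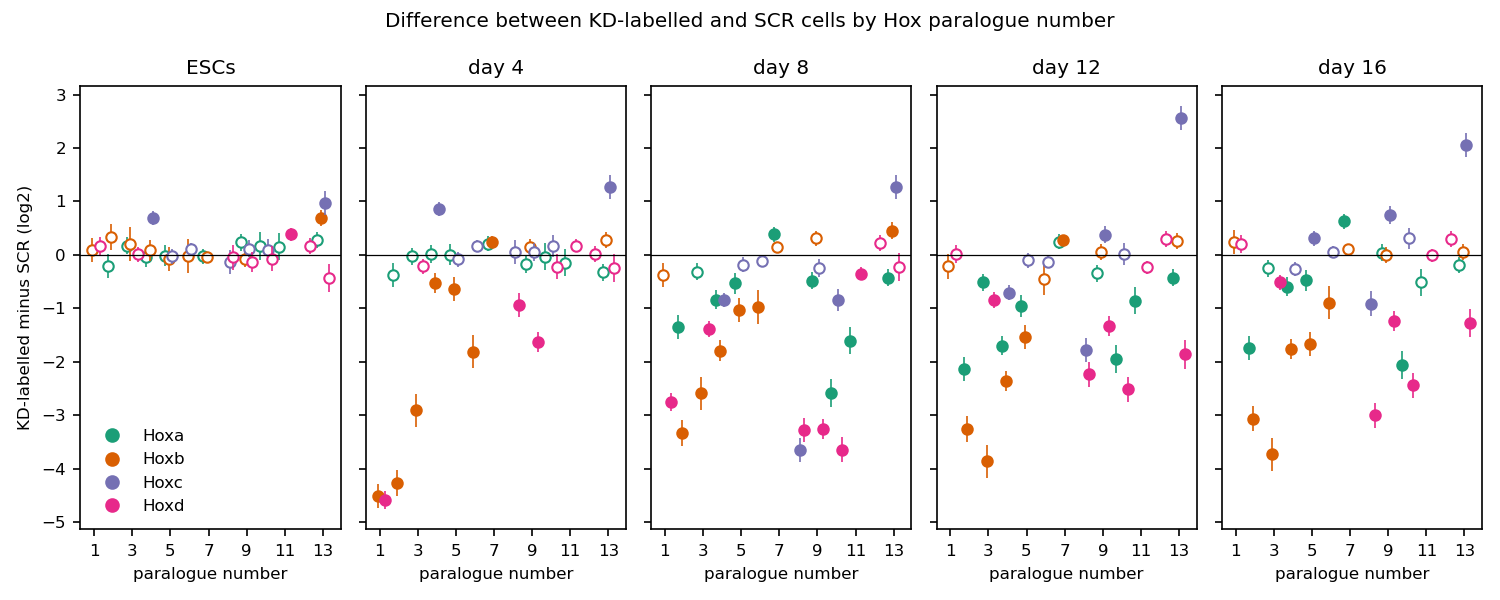
KD-labelled minus SCR log2 difference of each Hox gene (y axis) by paralogue number (x axis) at each stage, coloured by cluster, with standard errors as bars and filled points where the limma adjusted p is under 0.05. Near 0 in ESCs, the lowest points lie at numbers 1 and 2 at day 4 (-4.58 for Hoxd1) and at 2 and 8 to 10 at day 8 (-3.65 for Hoxc8), and Hoxc13 is the highest point on every EB day.

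Called by paralogue number against SCR, groups 1 to 4 had 8 of 10 members lower at day 8, groups 5 to 8 had 5 of 9 lower and 1 higher, and groups 9 to 13 had 8 of 14 lower and 2 higher. By cluster, 7 of 9 Hoxa, 5 of 9 Hoxb, 3 of 7 Hoxc and 6 of 8 Hoxd members were lower. Measured against SCR, Hoxa thus went without a call at day 4 and had 7 lower members at day 8. This does not extend to WT, where all KD-labelled arrays of Hoxa11 and Hoxa13 already lay below all WT arrays at day 4. Hoxa11 averaged 4.40 for the KD-labelled line and 5.03 for WT. Hoxa13 averaged 3.25 and 3.88, both under the background of 4.54. Hoxa7 went the other way, at 5.84 and 5.66, with arrays that overlapped. Hoxb9, Hoxc6 and Hoxd12 were not called between KD-labelled and SCR cells at any stage. Against WT, 0, 13, 18, 19 and 15 members were lower in KD-labelled cells from ESCs to day 16 (9.78%, 19.9%, 23.9%, 23.6% and 26.1% of all genes), and 3, 1, 2, 2 and 4 were higher (8.66%, 19.2%, 26.0%, 27.1% and 34.6%).

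At day 12, 18 of the 33 members were lower and 3 higher in KD-labelled than in SCR EBs (24.6% and 31.0% of all genes), and at day 16 15 were lower and 4 higher (26.8% and 39.8%). The lower ones include members whose KD-labelled and SCR means both lay under 4.54, such as Hoxd3 on either day. The median difference of the members was -0.51 and -0.26, against 0.10 and 0.17 over all genes. Lower against both controls were 14 and 13 members, when 19.8% and 23.1% of all genes were. Among the lower members the largest differences of either day were those of Hoxb3, Hoxb2, Hoxd10, Hoxb4 and Hoxd8. Hoxb3 read 4.25, 4.46 and 4.16 in KD-labelled, 8.44, 8.23 and 7.78 in SCR and 6.74, 7.59 and 5.77 in WT EBs of 12 days (-3.86 against SCR, SE 0.31, adjusted p = 3.32e-13). Hoxb4, a neck gene also known from blood stem cells, read 5.20, 4.95 and 5.18 in KD-labelled, 7.59, 7.63 and 7.19 in SCR and 6.56, 6.75 and 6.16 in WT EBs of 12 days (-2.36, SE 0.19, adjusted p = 3.61e-13). Neither gene had a KD-labelled array within the range of a control. The Hoxb2 difference was -3.25 at day 12 and -3.06 at day 16 (adjusted p = 3.21e-14 and 1.34e-13). Hoxd10 was lower by 2.51 and 2.44 (adjusted p = 1.18e-11 and 2.09e-11), with one SCR array of day 12 at 4.85 and the others at 6.41 and 6.50. Hoxd8 read 5.61, 4.76 and 5.40 in KD-labelled, 8.16, 8.08 and 8.53 in SCR and 7.84, 7.88 and 7.30 in WT EBs of 16 days (-3.00, SE 0.23, adjusted p = 6.18e-14). At day 16 Hoxb3 stood at 3.99, 4.24 and 4.37 in KD-labelled and at 8.23, 7.67 and 7.89 in SCR EBs (-3.73, adjusted p = 6.95e-13).

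Hoxc13 was the member that went the other way throughout. It read 6.31, 6.22 and 6.37 in KD-labelled, 3.81, 3.50 and 3.91 in SCR and 4.22, 3.92 and 4.55 in WT EBs of 12 days. KD minus SCR was 2.56 (SE 0.22, adjusted p = 2.44e-12) and KD minus WT 2.07 (adjusted p = 5.05e-10), with both control means under the background of 4.54. At day 16 it read 5.98, 6.10 and 5.71 in KD-labelled, 3.87, 3.93 and 3.80 in SCR and 4.48, 3.91 and 4.03 in WT EBs (2.06, SE 0.22, adjusted p = 4.20e-10). It fell below its ESC level in the controls, by 0.93 in SCR and 0.87 in WT at day 16, while in KD-labelled EBs its change since ESCs was 0.16 and was not called. It was the only member called higher than both controls at all 5 stages. Hoxc9, a thoracic gene, was above SCR by 0.38 at day 12 and 0.75 at day 16 (adjusted p = 0.0487 and 0.000161), but -0.36 and 0.06 from WT, and SCR was below WT for it on both days. Its day 12 call was lost without any 1 of the 6 arrays compared (0.35 to 0.40). Hoxa7 read 5.86, 5.89 and 5.80 in KD-labelled, 5.36, 5.30 and 4.99 in SCR and 5.37, 5.19 and 5.64 in WT EBs of 16 days (0.63, adjusted p = 0.000189). Hoxb7 differed from SCR by 0.28 at day 12 (adjusted p = 0.0152), and by 0.10 from WT, where it was not called. Hoxc5 differed by 0.31 at day 16 (adjusted p = 0.0484), a call that turned to -0.28 with its most variable probe set and to -0.02 with the mean of its probe sets.

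Within the KD-labelled line 3 members differed between day 16 and ESCs. Hoxc4 read 6.09, 6.08 and 6.43 at day 16 and 5.05, 4.76 and 4.97 in ESCs, a rise of 1.27 (SE 0.14, adjusted p = 1.60e-09). Hoxd8 read 5.61, 4.76 and 5.40 at day 16 and 4.50, 4.59 and 3.98 in ESCs, a rise of 0.90 (SE 0.23, adjusted p = 0.00163). Hoxb2 read 4.32, 5.42 and 5.03 at day 16 and 5.87, 5.28 and 6.08 in ESCs, a fall of -0.82 (SE 0.24, adjusted p = 0.00597) whose arrays overlap. The fall of Hoxb2 was not called without the last ESC array (-0.65) or the first 16-day array (-0.52). In the controls all 3 genes rose, Hoxc4 by 2.22 in SCR and 2.98 in WT, Hoxd8 by 3.85 and 3.23, and Hoxb2 by 2.57 and 2.13.

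The test of the difference between time courses compares each line's change since its own ESCs. In KD minus SCR the change was lower for 8, 19, 20 and 13 members at days 4, 8, 12 and 16, when 12.8%, 18.6%, 18.3% and 21.3% of all genes were called lower, and higher for 0, 0, 1 and 3 (13.7%, 19.4%, 20.8% and 26.4%). In KD minus WT it was lower for 9, 17, 16 and 14 (15.2%, 19.8%, 19.2% and 21.5%) and higher for 0, 0, 1 and 1 (14.6%, 20.2%, 21.5% and 23.8%). Both share the KD-labelled arrays. The member highest in KD minus SCR was Hoxc13 at day 12, as the plot by paralogue number shows for the levels.

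The controls differed from each other too, most widely in Hoxc8. SCR minus WT was called for no member in ESCs by limma (4.43% of all genes were higher and 5.72% lower), and lower for 1 (Hoxc4, -1.22) and higher for 0 at day 4 (1.32% and 0.61%). At days 8, 12 and 16 it was higher for 3, 7 and 2 members (2.83%, 7.05% and 3.86% of all genes) and lower for 5, 4 and 5 (4.16%, 7.67% and 4.25%). Hoxc8 was the widest apart, with 6.97 to 7.46 in SCR and 8.96 to 9.04 in WT EBs at day 8 (-1.86, SE 0.23, adjusted p = 6.89e-07), means of 5.41 in SCR and 8.32 in WT at day 12 (-2.91, adjusted p = 3.61e-11) and 4.23 in SCR and 7.33 in WT at day 16 (-3.11, adjusted p = 9.68e-13). Its arrays of the 2 lines did not overlap on any of these days. Hoxc9 and Hoxc10 were also lower in SCR than in WT EBs of 12 days, by 0.74 and 1.03 on the log2 scale, while Hoxa2, Hoxa4 and Hoxa5 were higher by 1.61, 1.35 and 1.13. For Hoxa2, a gene of the second hindbrain segment and neural crest, KD-labelled EBs of 12 days at 2.77 to 2.89 were 2.13 below SCR (4.48 to 5.41) but 0.52 below WT (3.08 to 3.71). For Hoxa4 and Hoxa5 KD-labelled EBs were called lower than SCR, and against WT the differences were -0.34 and 0.18 and not called. The size of a Hox difference in KD-labelled EBs thus depended on which control it was measured against.

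Other probe sets of the same genes gave larger differences for some genes and smaller ones for others. The members had 15 further probe sets with a single symbol, of which 9 were below SCR in KD-labelled EBs at day 8 in a fit over all 45037 probe sets, where 20.5% were lower. For Hoxa5, a gene of the lung and neck, the brightest probe set read 6.02 in KD-labelled EBs of 8 days, 6.55 in SCR and 6.09 in WT, and the other read 4.29, 6.63 and 5.54. At day 12 that second probe set stood at 4.41 in KD-labelled EBs, 8.48 in SCR and 5.81 in WT, and KD minus SCR was -4.07, against -0.95 by the brightest. For Hoxa9, a posterior gene known from leukaemia, the brightest probe set differed by -0.48 at day 8, and the other by -3.51, with means of 3.72 in KD-labelled EBs, 7.23 in SCR and 7.61 in WT. A probe set of Hoxa3, a pharyngeal arch gene, was lower by 1.97 at day 12, when the brightest was lower by 0.51. The opposite held for Hoxb3, Hoxa10 and Hoxd13. The other probe set of Hoxb3 differed by -0.77 at day 4, against -2.90 by the brightest, and that of Hoxa10 by -0.53 at day 8, against -2.59. For Hoxd13, a gene of digits and the genital tubercle, the brightest probe set differed by -1.86 at day 12 and -1.28 at day 16, and the other by 0.06 and 0.27 (limma adjusted p = 0.817 and 0.173). Hoxd13 is counted as lower on those days by its brightest set. Which set tracks the transcript was not tested.

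**Figure D4:**
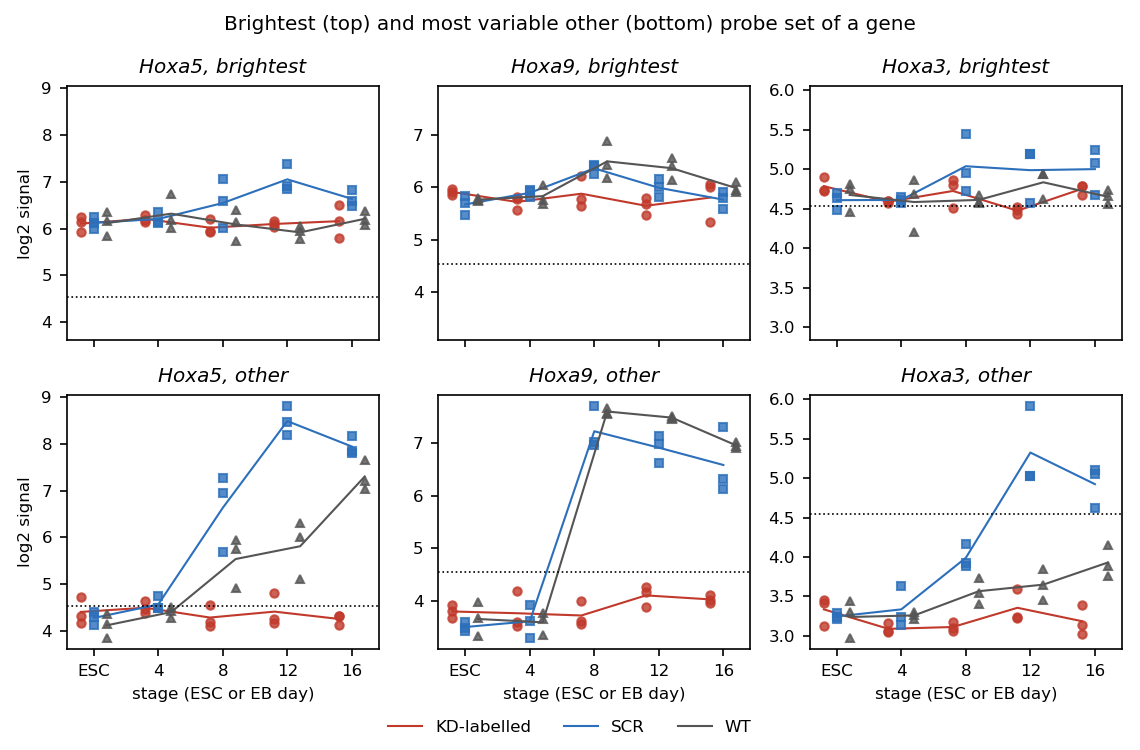
Log2 signal in every array by stage for the brightest probe set (top row) and the most variable other probe set (bottom row) of Hoxa5, Hoxa9 and Hoxa3, in KD-labelled (circles), SCR (squares) and WT cells (triangles), with lines through group means and a dotted line at the receptor background of 4.54. The lower row parts from the KD-labelled arrays after day 4, to 8.48 in SCR EBs of 12 days for Hoxa5, where the upper row reads 7.05.

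Genes for partners of Hox proteins and for signals upstream of the clusters were compared too. Of 8 measured genes for TALE homeodomain cofactors, which bind DNA together with Hox proteins, 6 were lower and 1 higher in KD-labelled than in SCR EBs at day 4 and 5 were lower and 0 higher at day 8. Of all genes 19.9% were lower and 22.6% higher at day 4, and 24.7% and 28.0% at day 8, and these shares apply to the counts of the lists that follow. The median of the 8 was -2.02 at day 8, that of all genes 0.07. Meis1 read 3.99, 4.51 and 4.46 in KD-labelled, 8.93, 9.20 and 9.16 in SCR and 8.52, 8.60 and 8.56 in WT EBs of 8 days (-4.78 against SCR, adjusted p = 4.50e-20). Meis2 read 6.02, 6.28 and 6.23 in KD-labelled, 10.21, 10.56 and 10.57 in SCR and 9.77, 9.68 and 9.73 in WT EBs (-4.27). Pbx3 was the only one of the 8 called against SCR already in ESCs, where it read 5.11, 4.60 and 5.49 in KD-labelled, 8.73, 7.93 and 8.51 in SCR and 7.84, 7.45 and 7.07 in WT cells (-3.32, adjusted p = 5.85e-16). In SCR and WT Meis1 and Meis2 rose over the same days as the Hox genes, and in KD-labelled EBs Meis1 stayed below its range in the controls from day 4 on.

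Of the 4 upstream activators Cdx1, Cdx2, Cdx4 and Gdf11, Cdx2 alone was called at days 4, 8 and 12. Cdx2, a caudal homeodomain factor that binds Hox clusters, read 5.34, 5.25 and 5.22 in KD-labelled, 7.66, 8.01 and 7.87 in SCR and 8.23, 7.40 and 7.66 in WT EBs of 4 days (-2.58 against SCR, adjusted p = 3.14e-10). Evx1, the even-skipped homologue beside Hoxa13, was lower by 3.88 at day 4 (adjusted p = 5.14e-20). It was read in a list of 11 homeobox genes, with Evx2, Mnx1, Gbx2, En2 and Dlx1 to Dlx6. Of the 11, 3 were lower and 2 higher then (27.3% and 18.2%, against 19.9% and 22.6% of all genes). Of 16 measured genes of retinoic acid synthesis, transport, receptors and breakdown, 4 were lower and 2 higher at day 4 and 7 lower and 4 higher at day 8. These are 25.0% and 12.5% of the list at day 4 and 43.8% and 25.0% at day 8. Rarb, a retinoic acid receptor that is itself a retinoid target, read 3.76, 4.17 and 4.10 in KD-labelled, 9.38, 9.05 and 9.11 in SCR and 8.71, 8.85 and 8.68 in WT EBs of 8 days (-5.17, adjusted p = 1.40e-20). Cyp26a1, the enzyme that breaks retinoic acid down, changed sides between days. It read 7.48, 7.33 and 7.86 in KD-labelled and 10.93, 10.81 and 10.65 in SCR EBs at day 4 (-3.24, adjusted p = 1.67e-09), but 9.92, 10.16 and 10.15 in KD-labelled and 7.43, 6.77 and 6.83 in SCR EBs at day 8 (3.07, adjusted p = 3.69e-09). Aldh1a2, the enzyme that makes retinoic acid in mesoderm, was lower by 2.17 at day 4 and 1.99 at day 8.

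**Figure D5:**
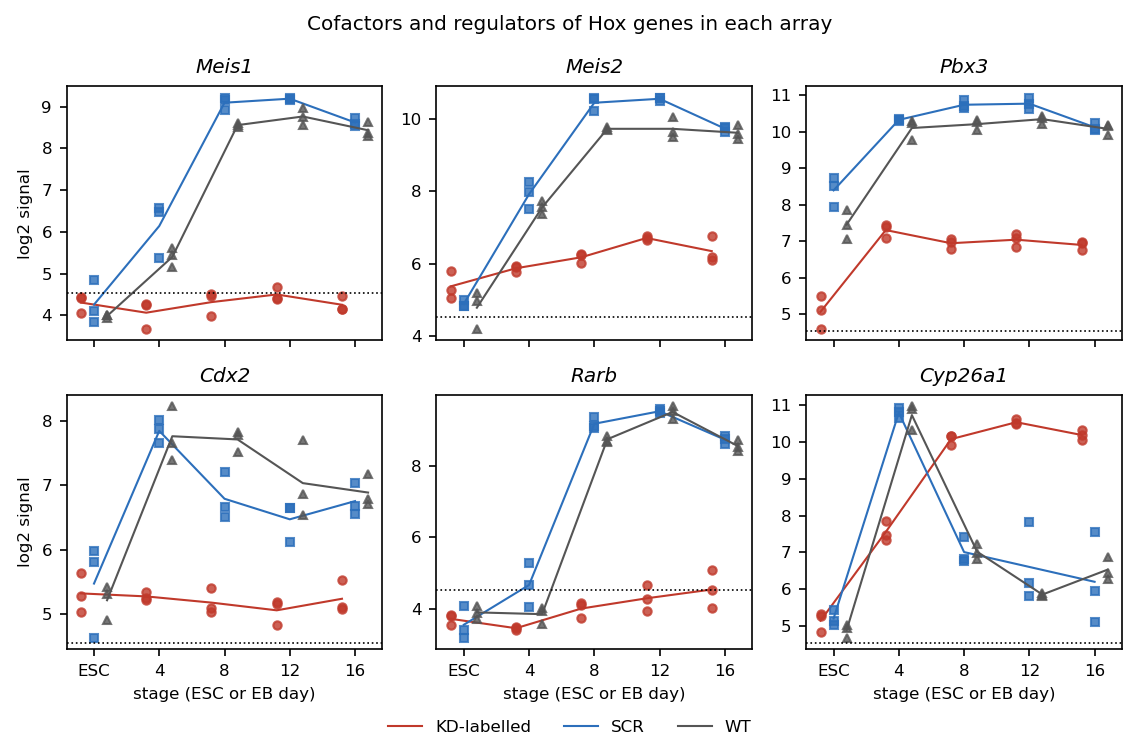
Log2 signal in every array by stage for the Hox cofactor genes Meis1, Meis2 and Pbx3, the upstream factor Cdx2 and the retinoic acid genes Rarb and Cyp26a1, in KD-labelled (circles), SCR (squares) and WT cells (triangles), with lines through group means and a dotted line at the receptor background of 4.54. Meis1 and Rarb are high from day 8 in SCR and WT and not in the KD-labelled cells, and Cyp26a1 is lower in KD-labelled EBs at day 4 and higher from day 8.

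Of 21 measured Polycomb genes, which keep Hox clusters silent, 9 were higher and 8 lower in KD-labelled EBs at day 8, compared with SCR, when 28.0% of all genes were higher and 24.7% lower. These are 42.9% and 38.1% of the 21. Cbx7, a chromobox subunit of the stem cell form of the complex, was higher by 4.82, Phc1 by 1.95 and Eed by 1.78, while Phc2 was lower by 2.03 on the log2 scale. Of 10 measured Trithorax and demethylase genes, which oppose that silencing, 6 were higher, among them Ash2l (1.51) and Dpy30 (1.08), and 2 lower, among them Kdm6b by 1.35. Of 4 hindbrain segment regulators, Irx3 was lower by 2.32 and Egr2 by 0.95, and Sox3 was higher by 0.97 at day 8. Of the 6 ParaHox genes, relatives of the Hox genes outside the clusters, Cdx2 was lower and Gsx2 higher (0.42) at that day.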

How the data were processed

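Expression was measured in 45 arrays, 3 for each of 15 groups. The deposited table holds log2 signals with 2 decimals for 45037 probe sets, and the submitters' processing notes name Affymetrix Expression Console, Partek 6.6 and RMA with no role or order. Of the probe sets, 34945 have 1 gene symbol, 932 several and 9160 none. Each of 18193 genes was read from its probe set with the highest mean.

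A linear model with 1 mean per group was fitted with limma 3.58.1 (R 4.3.3) to all genes, with 30 residual degrees of freedom. p-values were adjusted by Benjamini-Hochberg over all genes within each contrast, and a gene was called at adjusted p under 0.05. The fit was tested on simulated data.

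The members and lists were chosen with earlier results of these data known. The Hox genes named with every array are the 5 largest called differences of each contrast of KD with SCR, and of KD at day 16 with ESCs, and every member called against the direction of most. From each other list up to 4 of the largest called differences are named. Alternatives were array centring, cyclic loess, a filter on dim genes, other probe set rules, a 2-fold minimum, a replicate block, a fit of only the groups compared and leaving out each array. Leaving out the first 8-day array of all lines was added after seeing the data. Same-numbered arrays of different lines at a stage correlated at -0.30 to 0.48 in their deviations from group means, and 22 of 45 pairs were over 0.1. The median was 0.07, against -0.05 for arrays with different numbers. These values do not settle whether the numbers pair samples. The main fit did not pair them, and the replicate block is the alternative that does. Promoter sequences are from RefSeq (GRCm38.p6).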

Additional observations from a re-analysis of the deposited data

Results flagged for a closer look

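The change since ESCs was tested for a difference between lines. At days 4, 8, 12 and 16 it differed for 8, 19, 21 and 16 of the 33 Hox genes between KD-labelled and SCR cells, for 9, 17, 17 and 15 between KD-labelled and WT cells, and for 1, 4, 8 and 3 between SCR and WT cells (limma interaction contrasts, adjusted p under 0.05). Between SCR and WT the change was higher for 0, 1, 5 and 1 members, when 2.2%, 2.81%, 5.71% and 4.22% of all genes were higher, and lower for 1, 3, 3 and 2, when 2.79%, 3.36%, 5.55% and 3.9% were lower.

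Between the controls the genes, as SCR minus WT differences of change on the log2 scale, were Hoxc4 (-1.22) at day 4, and Hoxb4 (0.94), Hoxb6 (-1.69), Hoxc8 (-1.94) and Hoxc10 (-1.06) at day 8. At day 12 they were Hoxa2 (1.43), Hoxa4 (1.36), Hoxa5 (1.13), Hoxb3 (1.61), Hoxb4 (1.24), Hoxc8 (-2.98), Hoxc9 (-0.74) and Hoxc10 (-1.12). At day 16 they were Hoxc4 (-0.76), Hoxc8 (-3.18) and Hoxd10 (1.06).

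For some genes the change since ESCs ran in opposite directions in 2 lines. Hoxb2 did so in KD minus SCR at days 4, 8 and 16 (-4.59, -3.66 and -3.39) and in KD minus WT at the same days (-4.23, -3.14 and -2.95). Hoxd11 did so in KD minus SCR at day 8 (-0.74) and in KD minus WT at day 12 (-0.78). Hoxd3 did so at day 12 in KD minus SCR (-0.85) and in KD minus WT (-1.02). The group means behind these were 2.85 to 3.38 for Hoxd11 and 2.99 to 3.93 for Hoxd3. All lay under the background of 4.54, so for Hoxd11 and Hoxd3 the directions are those of probe signal at background. For Hoxb2 the KD-labelled arrays overlapped those of KD-labelled ESCs at days 8 and 16, and did not at day 4. Its fall at day 16 was not called without the last ESC array or the first 16-day array.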

How the results depend on the processing

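With only genes whose mean is above the median of all gene means, 4 of the 33 members remain in the test, so counts fall by construction. Called were then 0 members between KD-labelled and SCR and between KD-labelled and WT ESCs, 3 between KD-labelled and SCR EBs at day 4 and 4 on each later day, and 3 between KD-labelled and WT EBs on every day. Between SCR and WT 1 was called at day 12 and 0 at the other EB days. Against ESCs the counts were 1, 2 and 3 in KD-labelled EBs of days 4, 8 and 12, 3, 3, 4 and 4 in SCR and 3 on every day in WT, and for both controls 0 in ESCs and 3 on every EB day. The differences of time courses gave 3, 3, 4 and 3 for KD minus SCR, 3 on every day for KD minus WT and 0, 0, 1 and 0 for SCR minus WT.

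With a 2-fold minimum the counts from ESCs to day 16 were 0, 7, 14, 13 and 11 between KD-labelled and SCR cells, 0 in ESCs, 6 at day 4 and 12 at days 12 and 16 between KD-labelled and WT, and 3, 7 and 2 between SCR and WT EBs of days 8, 12 and 16. Against ESCs they were 0, 1, 2 and 1 in KD-labelled EBs, 7, 14 and 11 in SCR EBs of days 4, 8 and 16, and 12 and 11 in WT EBs of days 12 and 16. Against both controls they were 0, 6, 9 and 9 in ESCs and at days 4, 12 and 16, and 10 for the time courses of KD minus SCR at day 16. A 2-fold minimum can only lower a count. The shares of all genes under it are not given here, so these counts show only how the Hox counts depend on the rule. The mean of a gene's probe sets gave 1 call between SCR and WT ESCs, and the most variable probe set gave 5 for the time courses of SCR minus WT at day 16. Hoxc5 at day 16 turned to -0.018 and -0.28 under these probe set rules. A fit of only the groups compared gave 1 call between KD-labelled and WT ESCs, 1 against both controls in ESCs, and 4 between SCR and WT at days 8 and 16. There the Strip2 difference of 0.46 between KD-labelled and SCR EBs of day 4 was called. Without the first 8-day array of all lines, added after seeing the data, the time courses of SCR minus WT at day 8 gave 7 calls. With the 99th percentile of the receptor genes, 5.59, as background, 6, 4, 5, 8 and 6 members were above it in KD-labelled cells from ESCs to day 16, 4, 10, 14, 12 and 9 in SCR and 4, 12, 16, 14 and 13 in WT.

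Leaving out 1 array moved these counts by over 1.5 times. KD-labelled EBs against ESCs ranged from 1 to 3 at day 4 (1 without the third ESC array), 1 to 5 at day 8 (1 without the third ESC array, 2 without the third 8-day array) and 5 to 8 at day 12 (5 without the first and likewise without the last array). SCR against WT ranged from 1 to 2 at day 4 and 5 to 10 at day 8, and the difference of their time courses from 1 to 2, 1 to 7 and 5 to 12 at days 4, 8 and 12. With the replicate number as a block, 1 named call was lost, Hoxc9 at day 12 (0.38), and no count moved by over 1.5 times. The other alternatives, 317 without and 366 with an array left out, gave the same result. They mix counts that stayed within 1.5 times with Strip2 differences that kept their call. Array centring moved the median KD minus SCR difference of all genes at day 16 to 0.25 and cyclic loess to 0.05, against 0.17. No called Hox difference turned its sign under either, but some calls were lost or gained. Of 21 Hox calls between KD-labelled and SCR EBs at day 12, cyclic loess lost 2 and added 2. For the time courses of KD minus SCR at day 16, centring lost 2 of 16 calls and cyclic loess added 5. Cause was not tested for any of these. Members near the receptor background limit what can be read of small differences.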

Other observations

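Transcripts that lie antisense to Hox genes were read by probe sets of their own, which no comparison above used. At day 8 a probe set of Hoxd3os1 averaged 3.05 in KD-labelled EBs, against 6.92 in SCR and 6.48 in WT (KD minus SCR -3.87, limma adjusted p = 5.12e-17). Hoxb5os averaged 4.35 in KD-labelled EBs, against 5.77 in SCR and 6.05 in WT (-1.42, adjusted p = 1.80e-06), and a probe set of Hoxa11os 2.77, 3.98 and 4.24 in the same order (-1.21, adjusted p = 9.11e-06). Each of these 3 was called below SCR, when 20.5% of all 45037 probe sets were. The Hoxa11os means lay under the background of 4.54 in all 3 lines, so its difference is one of probe signal at background. A second probe set each of Hoxd3os1 and Hoxa11os differed by -0.44 (adjusted p = 0.00699) and 0.05 (adjusted p = 0.807).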
